A study of Homo sapiens with 6 samples.

Results

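Chromatin accessibility was examined at 40 autosomal genes that encode JmjC proteins and other dioxygenases dependent on α-ketoglutarate (αKG), in naive human embryonic stem (nES) cells with and without added αKG. The genes were listed by name, and the list was drawn up with earlier results of these data known. They comprised 15 histone demethylases, 7 JmjC protein hydroxylases, 6 nucleic acid dioxygenases, 8 collagen hydroxylases and 4 other dioxygenases. Of the 171517 peaks in the count table, 360 belonged to them. A peak was counted as a promoter peak when its centre lay within 1 kb of any GENCODE transcript start of the gene, and as a gene-body peak when its centre lay elsewhere inside the gene. There were 155 promoter peaks at 38 genes and 205 gene-body peaks in 27 genes.

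ATAC-seq, which uses the Tn5 transposase to cut and tag open DNA, was performed on H9 (WA09) cells, an established human embryonic stem cell line. The cells were maintained in tt2iLGö, a naive medium with a MEK inhibitor, a GSK3 inhibitor, a protein kinase C inhibitor and LIF, on mouse feeder cells at 5% oxygen, and were freed of feeders and plated on laminin, with the treatment starting at plating. The 3 dm-αKG libraries came from cells given 4 mM dimethyl-αKG (dm-αKG) for 24 h, an ester of αKG that crosses the plasma membrane. The 3 control libraries came from cells in the same medium with 0 mM dm-αKG for 24 h, and their treatment label reads DMSO. All libraries are from 1 cell line. The methods of the study describe them as biological replicates of a single experiment, and neither the methods nor the labels say whether they were separate cultures, so the p-values measure only the spread between these libraries. Counts in peaks were between 13025674 and 26828622 per library. The cells carried open promoters at 8 of 9 pluripotency markers, DPPA3 having no promoter peak, but also at 4 of 4 trophoblast, 4 of 4 primitive endoderm and 4 of 4 fibroblast markers, so that an open promoter did not by itself tell these cell types apart.

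The enzymes of this superfamily bind iron and αKG at the same active site, split molecular oxygen, and convert αKG to succinate while they hydroxylate their substrate. When the hydroxyl group lands on a methyl group attached to nitrogen, the methyl group leaves as formaldehyde. JmjC histone demethylases, FTO and several of the ALKBH proteins work in this way. The collagen hydroxylases act in the endoplasmic reticulum on newly made collagen chains. Because αKG is a cosubstrate and succinate and fumarate compete with it, the activity of many of these enzymes follows the state of the tricarboxylic acid cycle. ATAC-seq measures the accessibility of the genes that encode them and says nothing of enzyme activity.

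The DNA of 7 peaks is given first, because they include the peaks with the smallest adjusted p in each direction that lie outside annotated untranslated exons and stand for the patterns described afterwards. The letters are the plus strand of hg38. The first 4 became less accessible with dm-αKG and the last 3 became more accessible. Capitals mark matches to short motifs on either strand: the octamer core ATGCAAA in the KDM4A and KDM4C introns, the SOX core CATTGTT in the FTO intron, CArG boxes in the KDM3A intron, the antioxidant response element TGACNNNGC in the KDM6B intron, and the hypoxia-response core ACGTG at ALKBH1. The last of the 3 KDM6B matches overlaps an AP-1 match, TGANTCA. No motif was matched in the KDM4C promoter peak.
KDM4A intron 4, chr1:43660489-43660709: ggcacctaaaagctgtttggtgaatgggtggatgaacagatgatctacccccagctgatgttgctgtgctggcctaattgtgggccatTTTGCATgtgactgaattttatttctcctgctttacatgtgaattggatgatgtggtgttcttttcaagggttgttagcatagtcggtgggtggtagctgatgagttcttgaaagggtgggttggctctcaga
KDM4C intron 1, chr9:6777348-6777560: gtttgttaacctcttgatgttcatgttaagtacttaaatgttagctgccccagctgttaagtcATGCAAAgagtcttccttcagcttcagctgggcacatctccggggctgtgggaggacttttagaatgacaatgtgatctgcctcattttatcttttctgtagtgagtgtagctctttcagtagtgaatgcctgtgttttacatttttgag
FTO intron 3, chr16:53827833-53828032: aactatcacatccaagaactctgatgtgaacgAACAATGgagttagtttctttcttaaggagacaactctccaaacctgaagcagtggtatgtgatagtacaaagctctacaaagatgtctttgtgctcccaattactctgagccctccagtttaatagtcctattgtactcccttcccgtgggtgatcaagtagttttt
KDM3A intron 2, chr2:86442711-86442913: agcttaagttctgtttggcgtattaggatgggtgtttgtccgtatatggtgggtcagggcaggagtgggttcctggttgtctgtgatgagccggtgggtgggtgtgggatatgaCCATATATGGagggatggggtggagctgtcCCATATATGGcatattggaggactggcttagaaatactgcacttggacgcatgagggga
KDM6B intron 2, chr17:7841664-7841865: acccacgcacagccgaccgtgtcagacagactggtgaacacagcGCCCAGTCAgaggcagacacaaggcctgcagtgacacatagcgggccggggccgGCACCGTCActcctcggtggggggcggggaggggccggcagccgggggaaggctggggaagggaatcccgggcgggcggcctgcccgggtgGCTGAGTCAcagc
KDM4C promoter flank, chr9:6758459-6758664: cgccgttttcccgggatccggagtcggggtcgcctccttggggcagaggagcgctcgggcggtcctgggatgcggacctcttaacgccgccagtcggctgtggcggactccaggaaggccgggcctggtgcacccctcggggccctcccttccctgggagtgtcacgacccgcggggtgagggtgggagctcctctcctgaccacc
ALKBH1 promoter flank, chr14:77707717-77707921: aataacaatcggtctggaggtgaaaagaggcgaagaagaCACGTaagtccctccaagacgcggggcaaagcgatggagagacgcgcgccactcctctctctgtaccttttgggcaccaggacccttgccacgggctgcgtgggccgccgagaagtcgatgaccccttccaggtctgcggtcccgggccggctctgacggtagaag

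The main promoter peak of a gene was taken as its promoter peak with the most reads over the 6 libraries. At this peak, dm-αKG left most of the dioxygenase genes without a detectable difference. By the quasi-likelihood test of edgeR, with p-values adjusted over all peaks by Benjamini-Hochberg, 2 of 38 main promoter peaks became more accessible at an adjusted p below 0.05, against 8.53% of the main promoter peaks of all protein-coding genes. None became less accessible by edgeR or by DESeq2, against 5.12% of all genes by edgeR, and none was lower at an unadjusted p under 0.05 either, while 7 were higher at that level. The median log2 fold change over the 38 peaks was 0.09, and over all main promoter peaks 0.05. All 3 dm-αKG libraries lay above all 3 controls at 5 of the 38 peaks and below them at 1, against 19.2% and 9.84% of all genes. In bulk cells, a peak open in fewer cells and a peak less open in every cell cannot be told apart.

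The 2 main promoter peaks that rose belong to PLOD3 and KDM6B. PLOD3 encodes a lysyl hydroxylase that also glycosylates collagen. Its main promoter peak (chr7:101217519-101217719) had normalised read counts of 338, 311 and 293 in the control libraries and 457, 414 and 416 with dm-αKG. The groups did not overlap, and the log2 fold change was 0.46 ± 0.09 (SE; n = 3 per group; edgeR adjusted p = 5.88e-05). The peak lies within 1 kb of a start of ZNHIT1 as well, so that it cannot be given to PLOD3 alone. KDM6B encodes a demethylase of the Polycomb mark on histone H3. Its main promoter peak (chr17:7844831-7845035), at an internal start in exon 3, had counts of 345, 398 and 363 in control and 522, 397.7 and 457 with dm-αKG. One dm-αKG library lay within the control range, and the log2 fold change of 0.33 ± 0.09 (edgeR adjusted p = 0.00406) did not pass without dm-αKG replicate 1 (edgeR adjusted p = 0.169).

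The other 36 main promoter peaks covered a wide range of openness. The most accessible were those of the histone demethylase genes KDM4A and KDM2A. KDM4A, which acts on the heterochromatin mark, had control counts of 1017, 1010.0 and 1127 and dm-αKG counts of 1132, 1110.0 and 1298 (log2 fold change 0.16 ± 0.06, edgeR adjusted p = 0.0596). One control library overlapped the dm-αKG range there, and the peak passed with total-count scaling, with loess offsets, and after removal of control replicate 3 or of dm-αKG replicate 1. KDM2A, which binds unmethylated CpG islands, differed little between groups, with means of 1022 ± 34.4 in control and 1010.0 ± 18.04 with dm-αKG (SD, n = 3). Its main promoter peak begins at chr11:67239785, at an internal start, while the gene begins at chr11:67119263. The least accessible main promoter peak was that of KDM5B, with 148 ± 25.8 and 141 ± 11.9. ASPH was the only member whose dm-αKG libraries all lay below the controls, with counts of 623 to 630.4 in control and 591 to 597 with dm-αKG. The difference was narrow (log2 fold change −0.07 ± 0.07, edgeR adjusted p = 0.523). Besides PLOD3, all dm-αKG libraries lay above the controls at KDM4B, KDM4D, P3H1 and OGFOD1, a ribosomal protein hydroxylase, with log2 fold changes of 0.16, 0.09, 0.12 and 0.12 and edgeR adjusted p of 0.0713, 0.480, 0.234 and 0.205. The main promoter peaks of P4HA3, P3H2, ALKBH2, ALKBH8 and PHYH, like those of the members not named, had log2 fold changes between −0.21 and 0.19. At 14 of the 38 genes the main promoter peak also lay within 1 kb of a start of another coding gene.

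**Figure D1:**
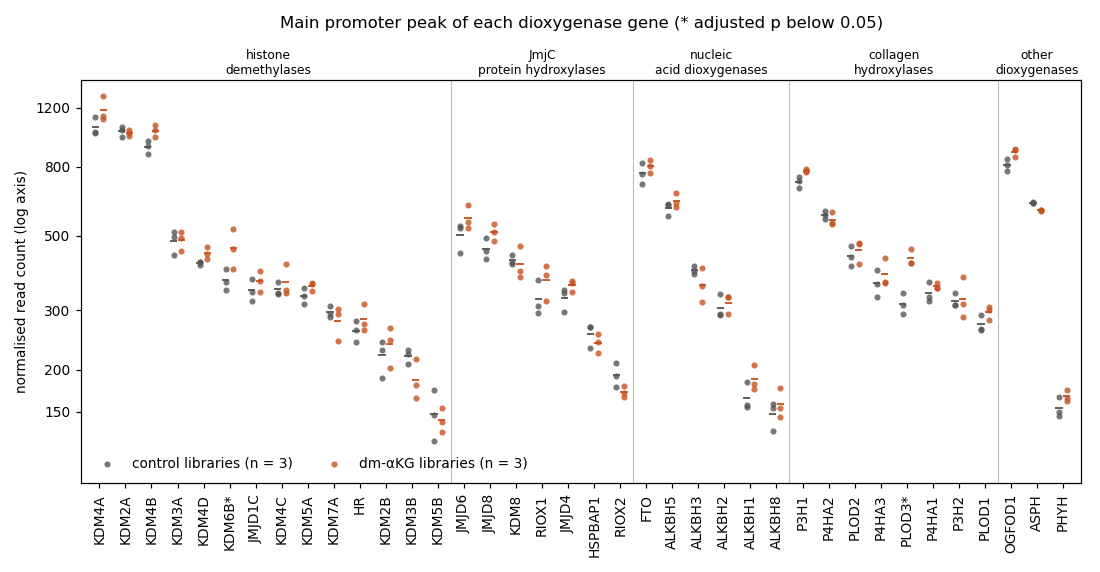
Normalised read counts (log axis) at the main promoter peak of each of the 38 genes that have one, in families, with 3 control and 3 dm-αKG libraries as points and group means as short lines. The peaks run from a control mean of 148 at KDM5B to 1051 at KDM4A, and only PLOD3 and KDM6B (asterisks) passed the test.

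PHF2 and BBOX1 had no promoter peak. The peak nearest to a start of PHF2, a plant homeodomain demethylase, was 1367 bp away and had means of 41.0 in control and 42.2 with dm-αKG. BBOX1 encodes the last enzyme of carnitine synthesis. The nearest peak to its starts was 46368 bp away, and no peak lay in the gene.

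The promoter peaks that passed were mostly smaller ones other than the main peak. All promoter peaks of a gene but the main one are called flanking here, also those at a distant start. At KDM2A, for example, a flanking peak that rose begins at chr11:67118296 and the main peak at chr11:67239785. Among the 117 flanking promoter peaks, 26 (22.2%) became more accessible and 3 (2.56%) less, against 11.2% and 3.36% of the flanking promoter peaks of all protein-coding genes. The median log2 fold change was 0.18, and 0.14 over all flanking peaks. Over main and flanking peaks together, 28 of 155 (18.1%) rose and 3 (1.94%) fell, against 10.4% and 3.86% of promoter peaks of all genes. A single one, at KDM5B, passed the stricter call of an adjusted p below 0.01 with an absolute log2 fold change above 1, which 0.801% of all promoter peaks did. DESeq2 called 16 of the 155 higher (10.3%) and 1 lower (0.645%), against 4.96% and 2.18% of promoter peaks of all genes. Without dm-αKG replicate 1, edgeR called 14 higher (9.03%) and 1 lower, against 5.54% and 2.55%. The number called higher was also 14 without dm-αKG replicate 2, 18 after removing control replicate 2 and 17 after removing control replicate 3, against 6.32%, 7.35% and 7.19% of promoter peaks of all genes. Fewer peaks were thus called in all genes as well under each of these settings.

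The 28 peaks that rose lay at 19 genes, 7 of which had more than 1. Peaks that rose had a median GC content of 67.8% and a median control count of 85.5, where the promoter peaks that did not pass had 64.8% and 128. Peaks that rose at the promoters of all genes had a median GC content of 67.5% and a median control count of 91.6. Leaving out each library in turn kept the call at 8 of the 31 promoter peaks that passed: 7 that rose, at KDM5B, PLOD3, P3H1, KDM4C, KDM3B and (2 peaks) KDM6B, and 1 that fell, at KDM3A.

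**Figure D2:**
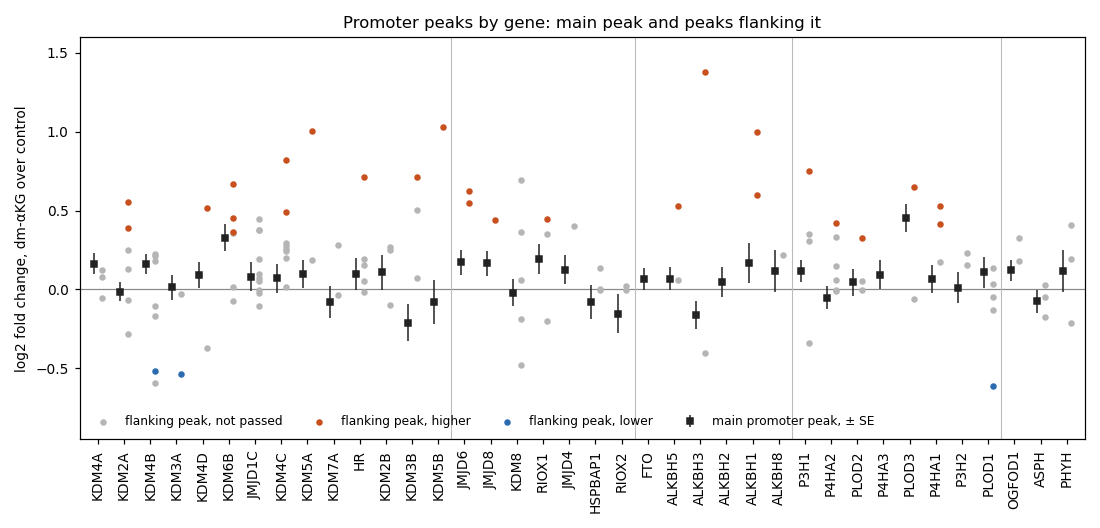
Log2 fold change (dm-αKG over control) of every promoter peak of the 38 genes, with the main peak as a square with its SE and flanking peaks as points coloured by call. Main peaks run from −0.21 at KDM3B to 0.46 at PLOD3, whereas 26 flanking peaks at 19 genes were higher and 3 were lower, at KDM4B, KDM3A and PLOD1.

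Among the histone demethylases, 13 of 74 promoter peaks rose (17.6%) and 2 fell (2.7%), against 10.4% and 3.86% of promoter peaks of all genes. KDM5B, which removes the methyl mark of active promoters, had the only promoter peak past the stricter call. Its second peak (chr1:202806984-202807191), 1333 bp inside the canonical start and 117 bp from an alternative start, had counts of 68.0, 85.5 and 103 in control and 180, 179.6 and 156 with dm-αKG. All dm-αKG libraries stood well above the controls, and the log2 fold change was 1.03 ± 0.15 (edgeR adjusted p = 1.49e-07). The peak at the canonical start did not differ detectably (−0.08 ± 0.14, edgeR adjusted p = 0.747). With its 2 promoter peaks summed, and scaled on summed promoter counts alone, the gene rose by 0.35 (edgeR adjusted p = 0.015), in the opposite direction to its main peak.

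KDM6B was the gene with the most promoter peaks that rose, 4 of 7. The peak upstream of its canonical start (chr17:7833788-7833991) had counts of 255, 279.5 and 267 in control and 392, 369.5 and 328 with dm-αKG, which do not overlap (log2 fold change 0.45 ± 0.10, edgeR adjusted p = 0.000211). Both peaks in the first intron rose too, the stronger from 85.5 ± 7.41 to 136 ± 10.0 (log2 fold change 0.67 ± 0.16, edgeR adjusted p = 0.00113). The weaker (0.36 ± 0.12, edgeR adjusted p = 0.0289) passed neither with DESeq2 (adjusted p = 0.0838) nor in 4 of the 6 fits that left out 1 library (either of replicates 1 and 2 in each group; edgeR adjusted p between 0.0574 and 0.141). Summed over its promoter peaks, KDM6B rose by 0.23 (edgeR adjusted p = 0.00148).

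KDM4C and KDM3B act on the heterochromatin mark of histone H3. The KDM4C promoter flank printed above had counts of 62.6, 63.3 and 64.4 in control and 123, 112 and 97.3 with dm-αKG (log2 fold change 0.82 ± 0.18, edgeR adjusted p = 0.000298). The controls were almost equal and all dm-αKG libraries lay above them, while the main peak 95 bp from the canonical start did not pass (0.07 ± 0.09, edgeR adjusted p = 0.641). At KDM3B, the flank 826 bp inside the gene rose from 73.4 ± 6.47 to 120 ± 13.01 (log2 fold change 0.71 ± 0.17, edgeR adjusted p = 0.00111), and the main peak had a value of −0.21 ± 0.12 (edgeR adjusted p = 0.220). At both genes, therefore, a flank passed where the main peak did not; the difference between flank and main peak was not tested.

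KDM5A, another demethylase of the active promoter mark, had a small peak in its first exon that went from 20.6 ± 7.34 to 42.9 ± 1.11 (log2 fold change 1.01 ± 0.30, edgeR adjusted p = 0.0100), and it did not pass without control replicate 3 (edgeR adjusted p = 0.0754). Further peaks that rose were at HR, KDM2A (2 peaks), KDM4C and KDM4D, with log2 fold changes between 0.39 and 0.71. HR, which encodes the hairless protein, lost the call without dm-αKG replicate 2 only (edgeR adjusted p = 0.0655), and the other 4 lost it without dm-αKG replicate 1 (edgeR adjusted p between 0.186 and 0.303) and in other such fits. None of the 11 promoter peaks of JMJD1C passed in edgeR or DESeq2, and 2 were higher at an unadjusted p under 0.05.

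KDM3A, an H3 heterochromatin mark demethylase whose gene is a known target of hypoxia-inducible factor, went the other way. The peak in its second intron, 366 bp from an annotated start, had counts of 380, 381 and 419 in control and 260, 248 and 313 with dm-αKG. All dm-αKG libraries lay below the controls, and the log2 fold change was −0.53 ± 0.09 (edgeR adjusted p = 1.01e-05, and at most 0.000803 without any 1 library). The main peak had means of 482 ± 39.5 and 485 ± 33.0. Its sum over 3 promoter peaks fell by 0.23 (edgeR adjusted p = 0.00216), and the main peak's fitted change was 0.01. The sum was scaled on summed promoter counts and the peak over all peaks, so the 2 values are not on the same scale. This is the sequence with 2 CArG boxes, a match held by 3 of the 155 promoter peaks of the members and by 0.886% of all peaks. The other demethylase promoter peak that fell lies at an internal KDM4B start (−0.52 ± 0.17, edgeR adjusted p = 0.0195), and it did not pass with DESeq2, without control replicate 1 or without dm-αKG replicate 1 (adjusted p of 0.0678, 0.158 and 0.115).

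The JmjC protein hydroxylases include enzymes that act on proteins of splicing and translation. Of the 24 promoter peaks of this group, 4 (16.7%) rose with edgeR and 3 with DESeq2, against 10.4% and 4.96% over all genes. None fell with either, against 3.86% and 2.18%, and none was lower at an unadjusted p under 0.05. JMJD6, a lysyl hydroxylase of splicing factors, had 2 of the 4, on either side of its main peak. The one 589 bp upstream of its canonical start had counts of 78.7, 97.0 and 93.5 in control and 139, 123 and 129 with dm-αKG (log2 fold change 0.55 ± 0.16, edgeR adjusted p = 0.00865). The groups did not overlap, but the call was lost without control replicate 1 or dm-αKG replicate 1 (edgeR adjusted p = 0.0752 and 0.0730), and METTL23 starts within 1 kb. The other JMJD6 peak, in intron 1, rose from 48.6 ± 13.7 to 73.3 ± 7.48 (log2 fold change 0.63 ± 0.21, edgeR adjusted p = 0.0302). It lost the call with DESeq2 (adjusted p = 0.106) and without either of replicates 1 and 2 of each group (edgeR adjusted p between 0.0875 and 0.167). RIOX1, a ribosomal protein hydroxylase, rose at the flank inside its single exon from 142 ± 12.4 to 195 ± 6.74 (log2 fold change 0.45 ± 0.13, edgeR adjusted p = 0.00861; 0.0516 without control replicate 3). JMJD8 rose by 0.44 ± 0.13 at the flank in its second exon (edgeR adjusted p = 0.00873), and not without control replicate 3 or dm-αKG replicate 1 (0.0972 and 0.0887). No promoter peak of JMJD4, KDM8, RIOX2 or HSPBAP1 passed.

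Among the nucleic acid dioxygenases, 4 of 13 promoter peaks (30.8%) rose with edgeR and 2 with DESeq2, against 10.4% and 4.96% over all genes. None fell with either, against 3.86% and 2.18%, and none was lower at an unadjusted p under 0.05. ALKBH1, which demethylates tRNA, had 2 of the 4 that rose with edgeR. The flank printed above had counts of 25.0, 31.2 and 18.2 in control and 56.7, 50.0 and 43.4 with dm-αKG (log2 fold change 1.00 ± 0.27, edgeR adjusted p = 0.00454). Every dm-αKG library lay above every control, and without dm-αKG replicate 1 the adjusted p was 0.0593. The other peak of ALKBH1 that rose, also in intron 1, had counts of 56.4, 43.6 and 49.8 in control and 92.5, 73.1 and 53.9 with dm-αKG. One dm-αKG library lay within the control range (log2 fold change 0.60 ± 0.21, edgeR adjusted p = 0.0348). The call was lost with DESeq2 (adjusted p = 0.138), with the replicate block (edgeR adjusted p = 0.0521) and without any of control replicates 2 and 3 and dm-αKG replicates 1 and 2 (edgeR adjusted p between 0.0655 and 0.389). A promoter shared with SLIRP lies at the same place, and the sum over the ALKBH1 promoter peaks rose by 0.30 (edgeR adjusted p = 0.0336). ALKBH5, an eraser of methyladenosine in mRNA, rose at its upstream flank from 91.7 ± 8.06 to 132 ± 14.99 (log2 fold change 0.53 ± 0.16, edgeR adjusted p = 0.0103), with adjusted p of 0.0508, 0.0703 and 0.0520 without control replicate 3, dm-αKG replicate 1 and dm-αKG replicate 2. The highest fold change of any promoter peak was at an internal start of the DNA repair gene ALKBH3, on low counts of 8.95 ± 3.20 and 24.0 ± 9.26 (log2 fold change 1.38 ± 0.43, edgeR adjusted p = 0.0160). It did not pass with DESeq2 (adjusted p = 0.0571) or after removal of control replicate 2 or of either dm-αKG replicate 2 or 3 (edgeR adjusted p between 0.0717 and 0.107). FTO, the other mRNA methyladenosine eraser, has 1 promoter peak, with 766 ± 54.0 and 804 ± 35.7 (edgeR adjusted p = 0.545).

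Of 33 promoter peaks of the collagen hydroxylases, 7 (21.2%) rose and 1 (3.03%) fell, against 10.4% and 3.86% of promoter peaks of all genes. P3H1 encodes a prolyl hydroxylase that works with a cyclophilin on fibrillar collagen. The peak in its first exon (chr1:42766688-42766891) had counts of 87.7, 92.1 and 76.5 in control and 143, 124 and 169 with dm-αKG. C1orf50 starts within 1 kb of it. The groups were well apart (log2 fold change 0.75 ± 0.16, edgeR adjusted p = 0.000224), and the call held without any 1 library (adjusted p at most 0.00315). Its main peak, on the other side of the start, went from 720 ± 27.3 to 780 ± 7.82 without overlap, a log2 fold change of 0.12 ± 0.07 that did not pass (edgeR adjusted p = 0.234). P4HA1, a catalytic subunit of collagen prolyl hydroxylase, had 2 flanks that rose, PLOD2, PLOD3 and P4HA2 had 1 each, and their log2 fold changes were between 0.33 and 0.65. All 5 lost the call in at least 2 of the 6 fits without 1 library. The highest edgeR adjusted p values were 0.0842 (control replicate 2 left out) and 0.303 (without dm-αKG replicate 1) at P4HA1, 0.0792 (without dm-αKG replicate 2) at PLOD2, 0.223 (without dm-αKG replicate 1) at PLOD3 and 0.247 (without control replicate 1) at P4HA2. The P4HA2 flank that rose lies far upstream of the canonical start. SLC22A4 starts within 1 kb of that flank and of the P4HA2 main peak, so neither can be given to P4HA2 alone. The promoter peaks at the canonical P4HA2 start had log2 fold changes of −0.0035, 0.147 and 0.059 and did not pass (edgeR adjusted p = 0.988, 0.276 and 0.769). PLOD1 had the 1 peak that fell, at an internal start, with 96.6, 113 and 87.5 in control and 55.9, 94.9 and 46.4 with dm-αKG (log2 fold change −0.62 ± 0.19, edgeR adjusted p = 0.0152). One dm-αKG library lay in the control range, and the call was lost with DESeq2 (adjusted p = 0.0914) and on removal of control replicate 2 or of either of dm-αKG replicates 1 and 3 (edgeR adjusted p = 0.129, 0.154 and 0.0769). None of the 11 promoter peaks of ASPH, OGFOD1 and PHYH passed with edgeR or DESeq2, and 1 was higher at an unadjusted p under 0.05.

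Summing promoter peaks per gene gave 5 genes higher (KDM5B, ALKBH1, PLOD3, KDM6B and JMJD6) and 1 lower (KDM3A) of 38, against 7.26% and 8.77% of all protein-coding genes. The JMJD6 sum passed narrowly (log2 fold change 0.19, edgeR adjusted p = 0.0494). The median of the 38 sums was 0.05 and that of all genes 0.00 on the log2 scale. The sums were scaled by TMM on summed promoter counts alone, whereas single peaks were scaled over all peaks. The medians and shares of the sums therefore cannot be set beside those of single peaks.

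Inside the genes, more peaks closed than opened. Of the 205 gene-body peaks, 29 (14.1%) became less accessible and 15 (7.32%) more, against 12.6% and 7.11% of gene-body peaks of all protein-coding genes. The shares were thus near those of the genome. The 5 past the stricter call, against 3.46% of all gene-body peaks, were all lower: 2 in FTO and 1 each in KDM4A, KDM4C and ASPH. The median log2 fold change was −0.02, as over all gene-body peaks (−0.03), and it was 0.02 with a promoter window of 500 bp, 0.0047 with control replicate 3 left out and 0.0091 with dm-αKG replicate 2 left out. The 29 lay in 11 genes, and KDM4C and FTO held 15 of them. Without those genes, 14 of 153 gene-body peaks (9.15%) fell. Without dm-αKG replicate 1 edgeR called 15 of the 205 lower (7.32%, against 8.58% of gene-body peaks of all genes), and without control replicate 1 it called 9 higher (4.39%, against 4.83%). DESeq2 called 19 lower (9.27%) and 9 higher (4.39%), against 8.09% and 3.58%.

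The smallest adjusted p of the 360 peaks was in KDM4A, the gene with the most accessible main promoter. Its intron 4 peak, printed first above and 10450 bp from the canonical start, had counts of 184, 174 and 166 in control and 58.8, 48.8 and 52.4 with dm-αKG. Each dm-αKG library held less than every control (log2 fold change −1.69 ± 0.16, edgeR adjusted p = 5.09e-14, and at most 1.51e-10 without any 1 library). The other 2 gene-body peaks of KDM4A, both in intron 3, 9253 and 9839 bp from the canonical start, fell as well. One went from 127 ± 21.2 to 68.9 ± 11.6 (log2 fold change −0.91 ± 0.17, edgeR adjusted p = 3.67e-05). The other, with 80.5, 97.8 and 108 in control and 89.6, 52.6 and 29.9 with dm-αKG, had overlapping groups (log2 fold change −0.61 ± 0.20, edgeR adjusted p = 0.0232) and did not pass with DESeq2 (adjusted p = 0.323) or when any of control replicates 2 and 3 and dm-αKG replicates 2 and 3 was left out (edgeR adjusted p between 0.08 and 0.203). All 3 therefore passed in the same direction, while no promoter peak of KDM4A passed.

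KDM4C had 9 gene-body peaks that fell and 1 that rose, of 29. A run of 9 peaks in the first intron (chr9:6762904-6788242) held 6 of the 9, with a median log2 fold change of −0.56. The strongest, 19481 bp from the canonical start, had counts of 389, 421 and 406 in control and 222, 230 and 289 with dm-αKG (log2 fold change −0.74 ± 0.10, edgeR adjusted p = 4.42e-09). No dm-αKG library reached the lowest control, and the call held without any 1 library (adjusted p at most 6.80e-06). The peak closest to the promoter in that run fell from 124 ± 9.95 to 66.7 ± 16.5 (log2 fold change −0.86 ± 0.17, edgeR adjusted p = 0.000117), although it lies only 5031 bp from the canonical start, beside promoter flanks that rose. In intron 3 a further peak fell from 55.2 ± 7.60 to 23.9 ± 5.69 (log2 fold change −1.26 ± 0.27, edgeR adjusted p = 0.000329). Of the 9 that fell, 4 kept the call without each library in turn, and the other 5 lost it without dm-αKG replicate 1 (edgeR adjusted p between 0.0617 and 0.106). The 1 peak that rose, in intron 17, had overlapping groups (edgeR adjusted p = 0.0484; 0.41 without dm-αKG replicate 1).

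FTO had 6 gene-body peaks that fell of 23 (5 with DESeq2) and none that rose with edgeR or DESeq2, and 1 was higher at an unadjusted p under 0.05. The peak in intron 3 printed above had counts of 159, 182 and 169 in control and 96.1, 77.0 and 109 with dm-αKG (log2 fold change −0.86 ± 0.15, edgeR adjusted p = 6.52e-06). A small peak next to it (chr16:53828098-53828297) had the largest log2 fold change of all member peaks, with 32.2, 46.0 and 27.9 in control and 7.89, 12.8 and 5.99 with dm-αKG (−2.00 ± 0.38, edgeR adjusted p = 3.15e-05). Both were well apart between groups and passed without any 1 library. A second place of loss lay in intron 8, where 2 of 5 peaks fell, the stronger from 45.5 ± 7.03 to 17.5 ± 5.76 (log2 fold change −1.42 ± 0.31, edgeR adjusted p = 0.000300). A peak past the end of the canonical transcript, in an untranslated exon of another one, fell from 141 ± 13.4 to 85.3 ± 10.1 (log2 fold change −0.69 ± 0.16, edgeR adjusted p = 0.000693). The remaining 2 of the 6 had log2 fold changes of −0.53 in intron 1 and −1.07 in intron 8. The first lost the call without any 1 of the libraries (edgeR adjusted p between 0.0693 and 0.13), and the second lost it on removal of either of control replicates 1 and 3 or of dm-αKG replicate 1 (0.0672, 0.0556 and 0.0649). The 6 peaks lie between 100042 and 448959 bp from the canonical start, and the FTO promoter peak did not differ detectably.

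**Figure D3:**
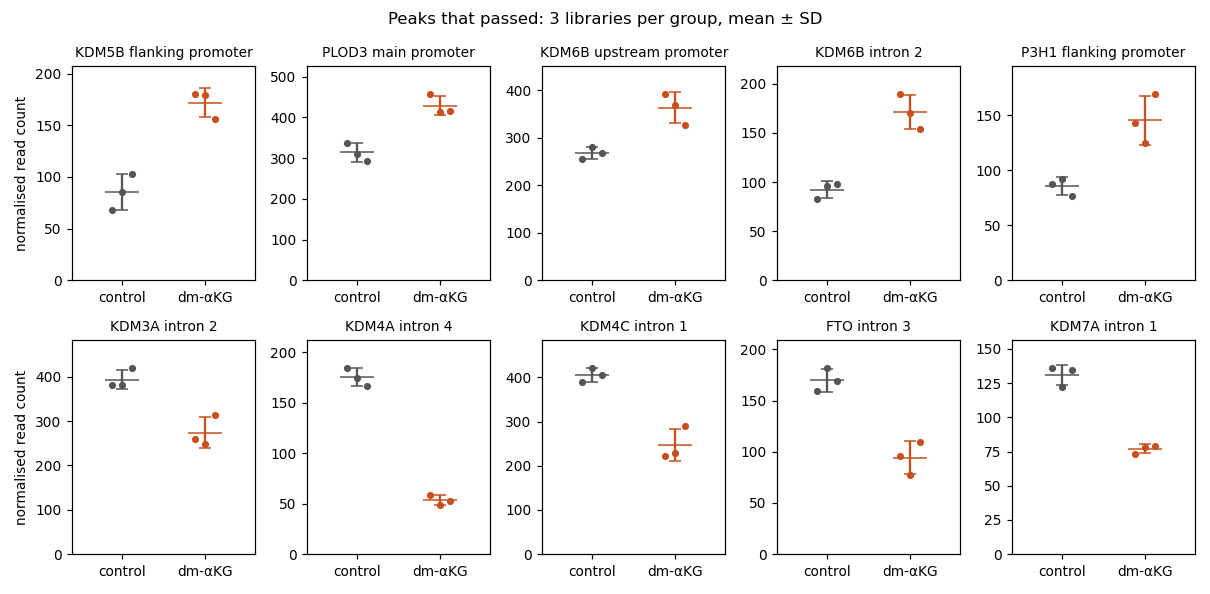
Normalised read counts at 10 peaks that passed, 5 that rose (top) and 5 that fell (bottom), with each library as a point and the group mean ± SD (n = 3). The KDM4A peak fell from a mean of 175 to 53.3 and the KDM5B peak rose from 85.6 to 172, and no panel has overlapping groups.

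Other peaks that fell were in KDM3B, KDM7A, HSPBAP1, KDM8, KDM2B, P3H1, PLOD1 and ASPH. In KDM3B, a peak in intron 11 had counts of 127, 92.9 and 130.0 in control and 61.0, 57.7 and 70.4 with dm-αKG (log2 fold change −0.89 ± 0.18, edgeR adjusted p = 0.000123). KDM7A removes repressive histone methylation. In its first intron, a peak fell from 131 ± 7.47 to 76.9 ± 3.31 (log2 fold change −0.78 ± 0.16, edgeR adjusted p = 0.000233), a second fell by 0.43 (edgeR adjusted p = 0.0199; 0.292 without dm-αKG replicate 1), and the last rose by 0.47 (edgeR adjusted p = 0.00901; 0.0591 without control replicate 1). Neighbouring peaks of 1 intron thus passed in opposite directions. PLOD1, the lysyl hydroxylase of collagen helices, likewise had a peak in intron 2 that fell from 115 ± 3.77 to 71.4 ± 1.70 (log2 fold change −0.69 ± 0.17, edgeR adjusted p = 0.00208) and one in intron 16 that rose from 159.5 ± 11.7 to 229 ± 6.25 (log2 fold change 0.53 ± 0.12, edgeR adjusted p = 0.000569). Of the JmjC protein hydroxylases, HSPBAP1 fell at 2 of 4 gene-body peaks, the stronger from 256 ± 8.54 to 196 ± 8.43 (log2 fold change −0.40 ± 0.11, edgeR adjusted p = 0.00601; 0.0507 without dm-αKG replicate 1). The only gene-body peak of KDM8 fell by 0.66 (edgeR adjusted p = 0.0137; 0.129 without control replicate 3). The ASPH peak, in intron 3, fell from 39.7 ± 10.7 to 18.7 ± 1.22 (log2 fold change −1.09 ± 0.31, edgeR adjusted p = 0.00720), and not without control replicate 2 (adjusted p = 0.121).

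The gene-body peaks that rose lay in 8 genes, and 9 of the 15 were in KDM2B, KDM4B and KDM6B. In KDM6B, promoter and gene-body peaks passed in the same direction. The intron 2 peak printed above had counts of 82.3, 96.2 and 98.4 in control and 189, 171 and 154 with dm-αKG (log2 fold change 0.91 ± 0.15, edgeR adjusted p = 1.28e-06, and at most 0.000383 without any 1 library). A peak in its intron 18 rose by 0.34 ± 0.10 (edgeR adjusted p = 0.00776; 0.0517 without dm-αKG replicate 3). Its 9 gene-body peaks had a median log2 fold change of 0.33, and none of them fell. The intron 2 sequence holds 3 antioxidant response matches, where 9.57% of all peaks hold at least 1. Of the 15 gene-body peaks that rose, this 1 (6.67%) holds a match, whereas 4 of the 29 that fell (13.8%) do.

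KDM2B brings a variant Polycomb complex to CpG islands. Of its 31 gene-body peaks, 5 rose and 1 fell. The strongest, 64411 bp from the canonical start, had counts of 306, 278 and 301 in control and 420.2, 395 and 343 with dm-αKG (log2 fold change 0.40 ± 0.09, edgeR adjusted p = 0.000689), and a smaller one in intron 12 rose from 39.9 ± 2.15 to 75.6 ± 8.52 (log2 fold change 0.90 ± 0.22, edgeR adjusted p = 0.00145). These kept the call without each library in turn, and the other 3 that rose and the 1 that fell did not. KDM4B rose at 2 of 17 gene-body peaks and fell at none, with 265, 259 and 261 in control against 389, 348 and 313 with dm-αKG at the stronger (log2 fold change 0.44 ± 0.10, edgeR adjusted p = 0.000473). In the 3 KDM4 genes with gene-body peaks, calls were lower at 3 of 3 in KDM4A and higher at 2 of 17 in KDM4B. In KDM4C they were lower at 9 and higher at 1 of 29. Of gene-body peaks of all genes, 12.6% were lower and 7.11% higher. The 2 calls in KDM4B are few beside that share, and the difference between genes was not tested. None of the 14 gene-body peaks of P4HA2 or the 10 of PHF2 passed with edgeR or DESeq2, and at an unadjusted p under 0.05 there was 1 higher in P4HA2 and 4 lower in PHF2. Most of the P4HA2 gene-body peaks lie upstream of its canonical start. Some of these are within 1 kb of a start of PDLIM4 or SLC22A4, so they cannot be given to P4HA2 alone.

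**Figure D4:**
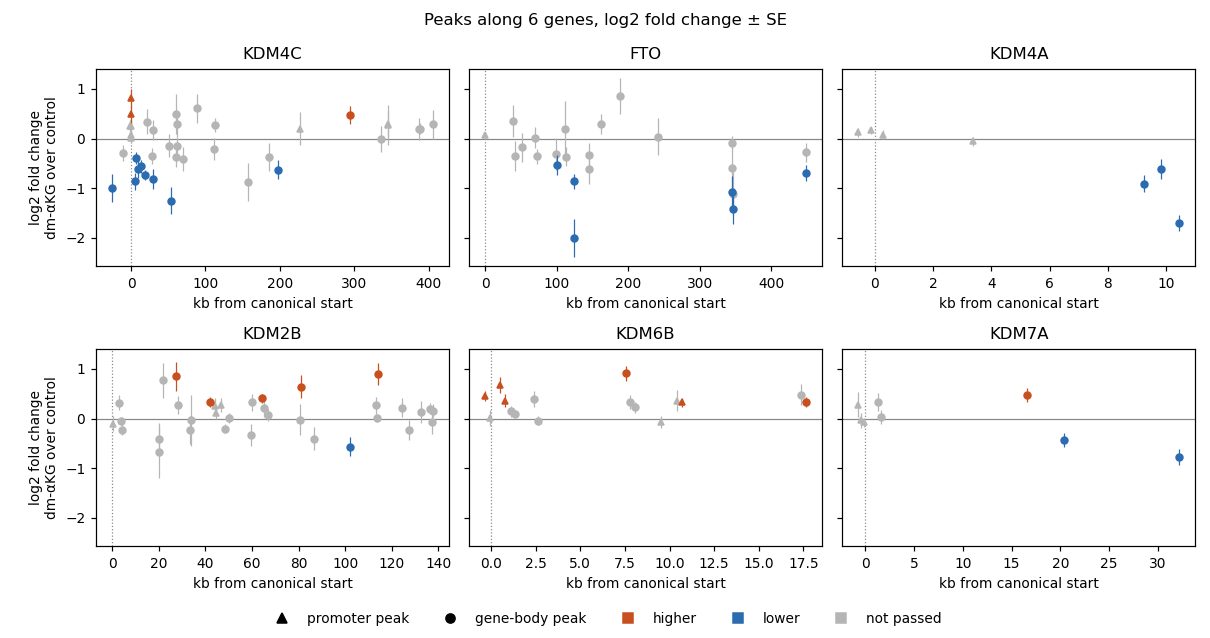
Log2 fold change (± SE) of every peak of 6 genes against its distance in kb from the start of the canonical transcript, with triangles for promoter peaks, circles for gene-body peaks and colour for the call. KDM4C has rising flanks at 0 followed by a run of falling intron peaks, FTO and KDM4A fall far from the promoter, and KDM6B rises at both the promoter and intron 2.

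Gene-body peaks that fell were lower in GC than those that rose, with medians of 47.0% and 54.0%, and 52.5% for those that did not pass. Over all genes the same medians were 50.5%, 54.0% and 53.0%. The deposited peak lists differed in the same sense, since 11 of the 29 that fell had a summit in the control list only and none in the dm-αKG list only, while 2 of the 15 that rose had one in the dm-αKG list only and none in the control list only. Over all genes, 30.6% of the gene-body peaks that fell were in the control list only, against 37.9% here, and 35.5% of those that rose were in the dm-αKG list only, against 13.3% here. The fell and rose calls use the same reads as the lists, so these counts are not independent. Of the 29 that fell, 27 were in an intron of the canonical transcript.

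The octamer core of POU factors, ATGCAAA, was in 4 of the 29 gene-body peaks that fell (13.8%), in 13 of all 205 (6.34%), in 5.81% of gene-body peaks of all genes and in 4.96% of all peaks. Both it and the CArG box were chosen after these sequences had been seen, and the counts describe them only. The whole octamer, ATGCAAAT, overlaps the core and was in 1 of the 29 and in 3915 of the 171517 peaks. The SOX core CATTGTT was in 2 of the 29 and in 2.43% of all peaks. The hypoxia-response core ACGTG was in 25 of the 155 promoter peaks of the members (16.1%) and in 15.4% of those of all genes, and in 5 of the 28 that rose. The antioxidant response element TGACNNNGC was in 4 of the 28 promoter peaks that rose, 9 of all 155 and 9.65% of promoter peaks of all genes. The CRE, TGACGTCA, was in none of the 155 and in 0.988%, and AP-1, TGANTCA, in 7 of the 155 and in 3.18%. All motifs were sought on both strands in the central 200 bp of each peak.

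Genes related to the 40 were compared at the main promoter peak. Of the main promoter peaks of all protein-coding genes, 8.53% rose and 5.12% fell by edgeR, and the counts below stand beside those shares. Of 19 other αKG dioxygenase genes, 2 rose and none fell by edgeR or DESeq2. These were TET1, the methylcytosine dioxygenase (log2 fold change 0.38 ± 0.11, edgeR adjusted p = 0.00810), and ALKBH6 (0.27 ± 0.07, edgeR adjusted p = 0.00488). Of 18 genes that make or use αKG in central metabolism none passed with edgeR or DESeq2, and 2 were higher at an unadjusted p under 0.05. Of 20 genes of flavin demethylases and histone methyltransferases, KDM1A (0.29 ± 0.10, edgeR adjusted p = 0.0396) and KMT2C (0.40 ± 0.14, edgeR adjusted p = 0.0394) rose, and neither passed with DESeq2. Of 13 collagen and chaperone genes, which shared 12 main promoter peaks, only SERPINH1, the collagen chaperone, passed, with 320.5 ± 8.86 in control and 209 ± 7.94 with dm-αKG (log2 fold change −0.61 ± 0.10, edgeR adjusted p = 3.61e-06). Among the 8 pluripotency promoters KLF17 (−0.39 ± 0.09, edgeR adjusted p = 0.00100) and PRDM14 (−0.23 ± 0.07, edgeR adjusted p = 0.0156) fell. None of the 12 trophoblast, primitive endoderm and fibroblast marker promoters passed with edgeR or DESeq2, and none had an unadjusted p under 0.05. The part of a change in cell composition in these results was not tested.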

How the data were processed

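Samples were grouped by the treatment in the labels. The authors ran the ENCODE ATAC-seq pipeline once per treatment (adapter trimming, Bowtie 2 against hg38, MACS2). They deposited reproducible peaks per treatment, with a score, the signal over background as a fold ratio, and the p-value as −log10. These lists were used only to locate summits. The authors cut peaks to 200 bp, merged them and deposited raw counts per peak and library (bedtools 2.28.0, per the labels). No sample column was unused.

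Counts were fitted over all 171517 peaks with edgeR 4.0.16 in R 4.3.3 (TMM, quasi-likelihood, treatment only, Benjamini-Hochberg), and "rose" or "fell" means an adjusted p below 0.05. SEs were derived from the F statistic and the fitted change. Normalised counts are scaled by TMM. Sums of promoter peaks per gene were fitted apart, with TMM factors computed from the summed promoter counts alone and p-values adjusted over genes. TMM factors were between 0.991 and 1.01. Genes came from GENCODE 44 and sequence from hg38. The members and lists were chosen with earlier results of these data known. Named peaks were, by rule, the main promoter peaks, every promoter peak that passed, the gene-body peaks past the stricter call, and the 15 of smallest adjusted p whose groups did not overlap; others were named after their values were seen. Tested on simulated data of 171517 peaks, the fit recovered 62 of 100 changes of 2-fold and 99 of 100 of 4-fold, with 4 false calls. The simulation gave every peak the same dispersion and changed only those peaks, none of them low in count. In the data edgeR called 12743 peaks higher and 18047 lower, so these figures do not give the recovery or false calls of the real comparison. Alternatives were DESeq2 1.42.0, RLE, total-count and loess scaling (limma 3.58.1), a minimum of 10 counts, a replicate block, other promoter definitions, other thresholds and leaving out each library.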

Additional observations from a re-analysis of the deposited data

How the results depend on the processing

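RLE, total-count and loess scaling and the minimum of 10 counts kept the member counts within 1.5 times, and the scalings moved the median of all peaks by at most 0.0168 (log2). DESeq2 gave 1 promoter peak lower and 16 higher, and 19 gene-body peaks lower and 9 higher. At an adjusted p below 0.01, edgeR gave 1 and 13 promoter peaks and 17 and 9 gene-body peaks. Starts of protein-coding transcripts alone left 1 promoter peak lower. A 500 bp window turned the gene-body median to 0.0187. Leaving out single libraries gave 1 to 3 promoter peaks lower and 14 to 30 higher, 15 to 32 gene-body peaks lower and 9 to 12 higher, and gene-body medians between -0.0667 and 0.0091. Of 75 member peaks that passed, 27 kept the call in every fit without 1 library and 36 lost it without dm-αKG replicate 1, the deepest library. Summing promoter peaks gave -0.231 for KDM3A and 0.348 for KDM5B. The sums were scaled anew on summed promoter counts, so part of any difference from the peak values lies in the scaling. FTO, ALKBH2 and P4HA3 have a single promoter peak each, with log2 fold changes of 0.067, 0.048 and 0.094. Fitted as sums, the same counts gave -0.009, -0.027 and 0.018. The cause of the other changes was not tested.

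Replicate numbers are shared between groups, but same-numbered libraries did not deviate together (correlations of -0.0157, -0.0009 and 0.0134). These values cannot show whether same-numbered libraries were cultured or handled together, and neither the labels nor the methods say. With the replicate block, 3 promoter peaks were lower and 27 higher, and 30 gene-body peaks were lower and 12 higher. The effect of depth on low peaks, such as that of ALKBH3 with a control mean of 8.95, was not tested.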
